A study of Homo sapiens with 3 samples.

Results

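Tubulin isotypes are the alternative alpha and beta subunits of the microtubule, and 10 of their genes are described here across 3 arrays of unstressed HEK-293T cells. The genes were TUBA1A and TUBA4A, which encode alpha-tubulins, and TUBB, TUBB1, TUBB2A, TUBB2B, TUBB3, TUBB4A, TUBB4B and TUBB6, which encode beta-tubulins. Members were all probe sets whose gene symbols in the platform annotation included one of these names, which gave 16 of the 54675 probe sets on the array. One of them, 209372_x_at, is listed for both TUBB2A and TUBB2B and was kept and marked as shared. The rule itself used no measured value, though the 10 genes were chosen with earlier results of these data known.

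The arrays, Affymetrix HG-U133 Plus 2, measured total RNA of HEK-293T, a human embryonic kidney line that carries a temperature-sensitive SV40 T-antigen gene. The study screened cDNAs for activators of the heat shock response in these cells, and the arrays showed which genes the cells express without stress. Cells were kept in DMEM with 10% heat-inactivated serum and received no treatment. Both 48 h cultures were harvested 48 h past seeding, the low-seeded one started with 375K cells per well (K, 1000 cells) and the high-seeded one with 750K, and the 24 h culture was harvested at 24 h after seeding with 1000K cells. RNA integrity numbers were 9.6, 10.0 and 9.5 in the same order. All cultures were of one transformed line, and harvest time, seeding number and any batch cannot be told apart.

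Alpha- and beta-tubulin form the heterodimer that polymerises end to end into protofilaments and side by side into the hollow microtubule. The isotypes differ mainly in the acidic C-terminal tail, which carries most modifications and touches motors and other associated proteins. Several isotypes are known for tissue bias: TUBB1 for platelets and megakaryocytes, TUBB3 for neurons and many tumours, and TUBB4A for brain, while TUBB and TUBB4B are widely expressed.

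The deposited values are MAS5 signals, an intensity on a linear scale that the authors scaled to a common mean on every array. A probe set was taken as above background where, on all 3 arrays, its signal exceeded the 95th percentile of 253 reference probe sets (genes known from tissues other than kidney, and olfactory and taste receptors), a threshold of 111.4 and 125.2 in the low- and high-seeded 48 h cultures and 101.7 in the 24 h culture. Of the 16 tubulin probe sets, 13 were above background, against 37.3% of all probe sets on the array. By gene, 8 of 10 had a probe set of their own above background, against 50.5% of all 19775 genes measured. The genes not above it were TUBB1 and TUBB4A. With x_at, s_at and shared probe sets left out, whose probes may bind more than one transcript, 4 probe sets and 4 genes were above background, TUBA4A, TUBB, TUBB2A and TUBB6. Signals of different probe sets depend on their probes, so no level is set here against that of another probe set.

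**Figure D1:**
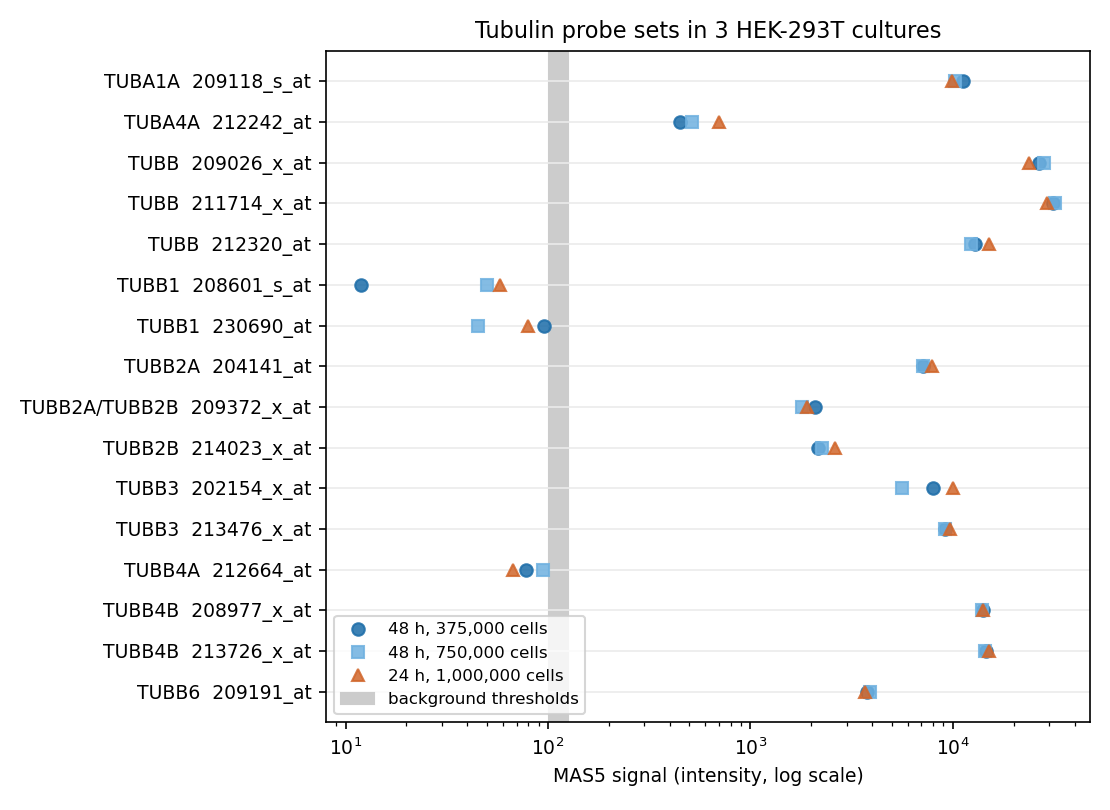
Each row is a tubulin probe set and each point its MAS5 signal (log axis) in the low-seeded 48 h (circle), high-seeded 48 h (square) or 24 h culture (triangle); the thresholds, 101.7 to 125.2, form the grey band. The 2 probe sets of TUBB1 and that of TUBB4A lie left of the band, and the other 13 lie between 448.2 and 32043.4.

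TUBA1A, the alpha-tubulin most abundant in developing neurons and also present in many dividing cells, was measured by 209118_s_at. Its signal was 11192.1 in the low-seeded and 10258.3 in the high-seeded 48 h culture, and 9884.1 in the 24 h culture. Both 48 h values lay above the 24 h value, by 0.12 on the log2 scale (95% interval -0.09 to 0.32), a difference that did not pass limma's test (adjusted p = 0.77). It was 0.05 without the low-seeded and 0.18 without the high-seeded 48 h array, and 0.06 with arrays scaled to equal medians. The gene lies at chr12:49184795-49189080 in GRCh38.p14.

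TUBA4A, an alpha-tubulin whose gene encodes no C-terminal tyrosine and which is prominent in platelets and muscle, was read by 212242_at. Its signals of 448.2 and 516.9 in the low- and high-seeded 48 h cultures stood beside 698.2 in the 24 h culture. Both 48 h values were lower, with a log2 difference of -0.52 (95% interval -0.98 to -0.06; adjusted p = 0.45, limma). The signal was 4.02 to 6.86 times the threshold of its array. The gene occupies chr2:219249710-219254740.

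TUBB, which encodes the class I beta-tubulin found in nearly all cells, had 3 probe sets, and they did not move together. The signal of 209026_x_at was 26644.2 and 28287.5 in the 48 h cultures and 23719.1 in the 24 h culture. That of 211714_x_at was 31406.4 and 32043.4 in the 48 h cultures and 29089.6 in the 24 h culture. In both of these the 48 h cultures were the higher ones, by 0.21 (95% interval 0.01 to 0.41) and 0.12 (-0.08 to 0.33) on the log2 scale. For 211714_x_at the difference was 0.008 after quantile normalization and 0.07 with equal medians. For 212320_at the order was the other way, with 12851.7 and 12355.4 in the 48 h cultures and 15191.4 in the 24 h culture, a log2 difference of -0.27 (-0.47 to -0.07). None of the 3 passed the adjusted test, with limma's adjusted p of 0.505 for 209026_x_at, 0.751 for 211714_x_at and 0.325 for 212320_at. The signal of 209026_x_at divided by that of 212320_at on the same array was 2.07 and 2.29 at 48 h and 1.56 at 24 h. The size of such a ratio depends on the probes, and its change from array to array shows that these probe sets changed unequally. The suffix x_at marks a probe set with probes that may also bind other transcripts, which for tubulins can be those of other isotypes, while 212320_at carries no such mark. The gene lies at chr6:30720352-30725422.

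TUBB2A and TUBB2B encode the nearly identical class II beta-tubulins, known above all from brain, and they are neighbours on chromosome 6. TUBB2A spans chr6:3153666-3157544 and TUBB2B chr6:3224277-3227653, a gap of 66732 bases with no other tubulin gene of the 10 between them. The TUBB2A probe set 204141_at gave 7152.4 and 7152.1 in the 48 h cultures and 7937.0 in the 24 h culture. The TUBB2B probe set 214023_x_at gave 2157.4 and 2270.4 in the 48 h cultures and 2613.2 in the 24 h culture. Each was lower in both 48 h cultures, with log2 differences of -0.15 (95% interval -0.35 to 0.05) for TUBB2A and -0.24 (-0.48 to 0.00) for TUBB2B, and neither passed limma's test (adjusted p = 0.671 and 0.537). The shared probe set 209372_x_at gave 2079.1 and 1797.4 in the low- and high-seeded 48 h cultures and 1897.2 in the 24 h culture. It was the only tubulin probe set above background whose 48 h values lay on either side of the 24 h value, and its difference of 0.03 (-0.24 to 0.30) had no settled sign, being -0.08 without the low-seeded and 0.13 without the high-seeded 48 h array.

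The 250 bases before the RefSeq start of each of these neighbours are shown because the genes share a probe set and differ here in their upstream sequence. Both lie on the minus strand, TUBB2A's window at chr6:3157545-3157794 and TUBB2B's at chr6:3227654-3227903 (GRCh38.p14), and are printed 5' to 3' as transcribed. Capitals mark matches on either strand to the TATA box letters TATAAA, the CCAAT box CCAAT, the GC box GGGCGG, the core of the cyclic AMP response element TGACG, and the heat shock element core GAANNTTC.
TUBB2A: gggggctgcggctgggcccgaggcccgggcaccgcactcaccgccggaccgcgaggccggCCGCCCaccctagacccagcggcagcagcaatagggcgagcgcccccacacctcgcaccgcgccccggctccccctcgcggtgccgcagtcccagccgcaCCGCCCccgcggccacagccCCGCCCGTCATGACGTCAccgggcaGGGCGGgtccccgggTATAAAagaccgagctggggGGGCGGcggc
TUBB2B: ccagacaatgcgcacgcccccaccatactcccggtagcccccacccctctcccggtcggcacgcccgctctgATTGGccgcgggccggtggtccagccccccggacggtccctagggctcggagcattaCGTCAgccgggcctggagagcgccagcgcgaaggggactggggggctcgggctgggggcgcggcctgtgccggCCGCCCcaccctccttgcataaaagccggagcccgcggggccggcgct
An alignment of both windows gave 138 identical bases in 263 columns (52.5%). TUBB2A's window held 5 GC boxes, 3 TGACG matches and a TATAAA that begins at base -30 from the start. Neighbouring matches in it overlapped at 2 places, a GC box with a TGACG match, and TGACG matches on opposite strands with each other. TUBB2B's window held 1 CCAAT, 1 GC box and 1 TGACG. The TUBB2A window also overlaps LOC105374889.

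TUBB3, the class III beta-tubulin used as a neuronal marker, had 2 probe sets that differed in how steady they were. The signal of 202154_x_at was 7980.2 in the low-seeded and 5645.6 in the high-seeded 48 h culture, and 10040.6 in the 24 h culture. That of 213476_x_at was 9143.0 and 9116.7 in the 48 h cultures and 9647.2 in the 24 h culture. Both were lower in each 48 h culture, with log2 differences of -0.58 (95% interval -0.87 to -0.29) for 202154_x_at and -0.08 (-0.28 to 0.12) for 213476_x_at. The first had the smallest adjusted p of the tubulins, 0.0963 by limma, and did not pass the threshold of 0.05, while the second had 0.865. The difference of 202154_x_at rested unequally on the 48 h arrays, being -0.83 with the low-seeded array left out and -0.33 with the high-seeded array left out. Its signal divided by that of 213476_x_at was 0.873 and 0.619 at 48 h and 1.04 at 24 h, a change of 1.68 times between the extreme arrays. Whether probe design has a part in this was not tested. The gene lies at chr16:89921925-89936097.

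TUBB4B, the widely expressed class IVb beta-tubulin found in cilia among other places, was the steadiest. Its probe set 208977_x_at gave 14128.2 and 14022.8 in the 48 h cultures and 14130.9 in the 24 h culture. Its other probe set, 213726_x_at, gave 14556.5 and 14488.4 in the 48 h cultures and 15106.9 in the 24 h culture. The differences were -0.01 (95% interval -0.20 to 0.19) and -0.06 (-0.25 to 0.14) on the log2 scale, with limma's adjusted p of 0.995 and 0.915, and the ratio of the probe sets stayed between 0.935 and 0.971 on the 3 arrays. The gene lies at chr9:137241287-137243707.

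**Figure D2:**
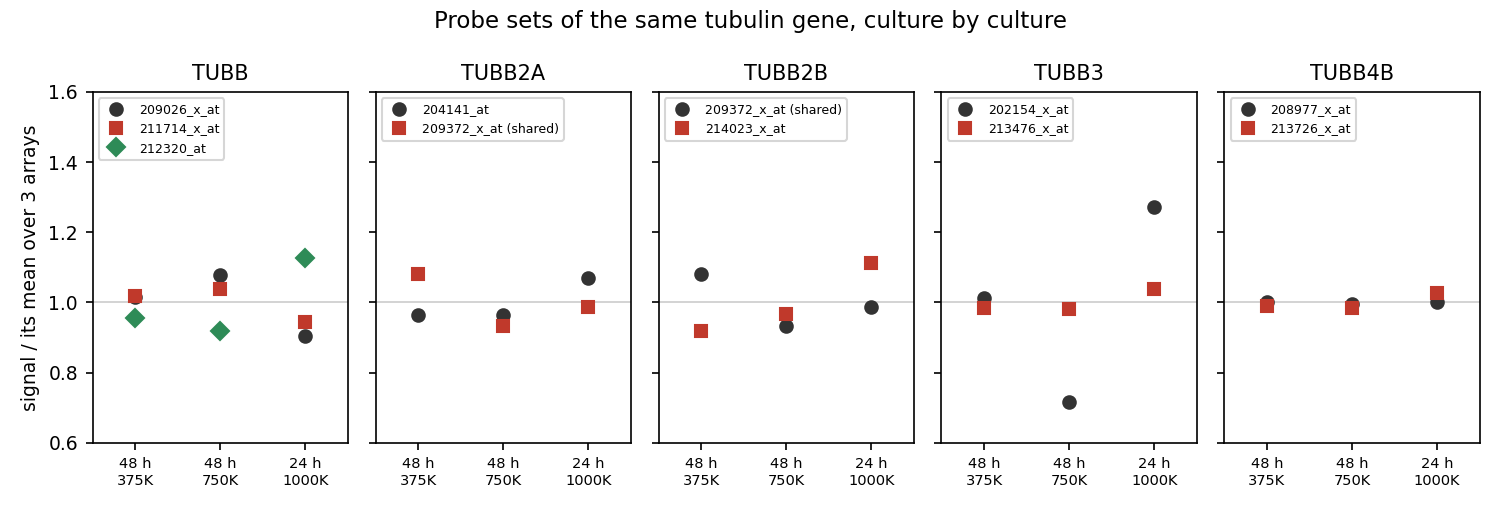
For the 5 tubulin genes with more than 1 probe set above background, each point is a probe set's signal in a culture (x axis: 48 h with 375K and 750K cells seeded, 24 h with 1000K) divided by its own mean over the 3 arrays (y axis). The TUBB4B probe sets stay near 1 together, 212320_at of TUBB is the only one of its gene that is highest at 24 h, and 202154_x_at of TUBB3 spreads far more than 213476_x_at.

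The upstream windows of the ubiquitous pair TUBB and TUBB4B are shown for comparison, both on the plus strand, at chr6:30720102-30720351 and chr9:137241037-137241286, with the same letters in capitals. RefSeq gives TUBB another start farther inside the gene, whose window is not printed.
TUBB: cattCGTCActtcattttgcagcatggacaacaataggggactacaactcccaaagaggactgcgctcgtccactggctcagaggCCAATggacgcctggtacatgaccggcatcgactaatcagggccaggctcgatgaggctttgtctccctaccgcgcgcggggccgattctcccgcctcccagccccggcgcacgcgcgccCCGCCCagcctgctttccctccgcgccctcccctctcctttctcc
TUBB4B: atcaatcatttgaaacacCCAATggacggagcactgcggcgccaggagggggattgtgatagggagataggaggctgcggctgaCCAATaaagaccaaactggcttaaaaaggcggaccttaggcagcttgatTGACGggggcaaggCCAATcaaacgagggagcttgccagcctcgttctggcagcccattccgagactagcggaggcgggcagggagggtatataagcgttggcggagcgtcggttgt
TUBB4B's window held 3 CCAAT boxes and 1 TGACG, and TUBB's held 1 CCAAT, 1 GC box and 1 TGACG. RefSeq gave 14 such windows for the 10 genes. CCAAT stood in 7 of the 14, against 32.0% of all 35116 windows of the same length, and the GC box in 9, against 42.6%. TGACG stood in 5, against 21.2%, and TATAAA in 1, that of TUBB2A, against 10.7%. The heat shock element core stood in none of the 14, against 5.8% of all windows. Median GC content was 68.2% in the tubulin windows and 58.0% in all. A match is a run of letters and not a binding site, and the letters missing from these windows may stand elsewhere. Only these exact letters were searched, so variant forms of a motif inside the windows, such as other TATA-like runs, were not counted.

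TUBB6, the class V beta-tubulin, found in many tissues, was read by 209191_at. It gave 3767.9 and 3891.4 in the 48 h cultures and 3686.9 in the 24 h culture. Both 48 h values were slightly higher, by 0.05 (95% interval -0.16 to 0.27; adjusted p = 0.929, limma), and by 0.002 with equal medians. The gene lies at chr18:12307669-12329826.

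TUBB1, the class VI beta-tubulin of the platelet marginal band, was not above background with either probe set. The signal of 208601_s_at was 11.9 and 50.0 in the 48 h cultures and 58.1 in the 24 h culture, and that of 230690_at was 95.1 and 45.0 in the 48 h cultures and 80.0 in the 24 h culture. These reached at most 0.854 times the threshold of their array. Of 6 markers of megakaryocytes and platelets, among them PF4, PPBP, ITGA2B and GP9, 0 were above background, against 50.5% of all genes measured. GP1BA missed the threshold only in the low-seeded 48 h culture (73.25 against 111.4). The brightest probe sets of the 6 genes summed to 332.1 and 474 in the 48 h cultures and 277.1 in the 24 h culture. These sums came mostly from signals below the thresholds. The gene lies at chr20:59016438-59026654.

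TUBB4A, the class IVa beta-tubulin of neurons and oligodendrocytes, gave 77.9 and 95.1 in the 48 h cultures and 67.0 in the 24 h culture with 212664_at, at 0.658 to 0.76 times the threshold. Of 3 oligodendrocyte markers measured (MBP, MOG and MAG), 0 were above background, though MBP passed the threshold in the 24 h culture (116.3 against 101.7). Of 8 neuronal markers, 3 (37.5%) were above background. Both counts stand beside 50.5% of all genes measured. The 3 were NEFL and NEFM, which encode neurofilament subunits, and SYT1, a synaptic vesicle protein. SNAP25, STMN2, ELAVL4, DCX and RBFOX3 were not above background, though SNAP25 passed the threshold in the 24 h culture (113.7 against 101.7). RBFOX3, a nuclear marker of mature neurons, stayed at 7.78 and 28.1 in the 48 h cultures and 8.63 in the 24 h culture. The brightest probe sets of the 8 neuronal genes summed to 8158.2 and 8151.4 in the 48 h cultures and 8498.6 in the 24 h culture. Most of this sum came from NEFM (5466.1 and 5502.5 at 48 h, 5849.7 at 24 h) and NEFL (2104.5 and 2093.8, 2029.3). TUBB3, above background here, is accompanied by some neuronal genes and not by others, and their part in the TUBB3 signal was not tested. The TUBB4A gene lies at chr19:6494319-6502848.

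The label of the cells was checked on kidney genes. Of 7 genes of the embryonic kidney with a probe set of their own, 5 were above background, against 50.5% of all genes measured. The 5 were PAX8 and SIX2, transcription factors of the forming nephron, and SALL1, WT1 and VIM. PAX8 passed with 1 of its 8 probe sets. PAX2 and LHX1 were not above background, PAX2 missing the threshold only in the low-seeded 48 h culture (85.5 against 111.4). Of 6 genes of the mature tubule and glomerulus, only LRP2, the endocytic receptor megalin, was above it, and AQP2, SLC12A1, SLC12A3, SLC34A1 and NPHS1 were not. None of the 4 blood markers PTPRC, CD3E, CD14 and HBB was.

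The 48 h cultures were set against the 24 h culture to see whether tubulin signals differed with harvest time. limma called 0 of the 13 tubulin probe sets above background at an adjusted p under 0.05, and over all 22166 probe sets tested it called 69 (0.311%), 16 higher and 53 lower at 48 h. At an unadjusted p under 0.05 there were 4 tubulin probe sets, against 9.45% of all tested, a count that became 2 with equal medians and 1 without the mean-variance trend. They were 202154_x_at of TUBB3, 212242_at of TUBA4A and 212320_at of TUBB, lower at 48 h, and 209026_x_at of TUBB, higher at 48 h. Both 48 h values lay on one side of the 24 h value in 12 of 13, against 70.6% of all probe sets tested. Differences were negative in 8 and positive in 5, and their median was -0.06 on the log2 scale, against -0.01 over all tested, where the quartiles were -0.17 and 0.15. With a single 24 h array the unadjusted 95% intervals reached 0.20 to 0.46 to each side, and differences of up to -0.58 were not called after adjustment. In all 13 the interval of the main fit lay within 1 of 0 on the log2 scale. Its width rests mostly on a spread pooled over all probe sets tested (16.718 prior against 1 residual degree of freedom). It therefore sets no firm limit on the change of a single probe set.

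**Figure D3:**
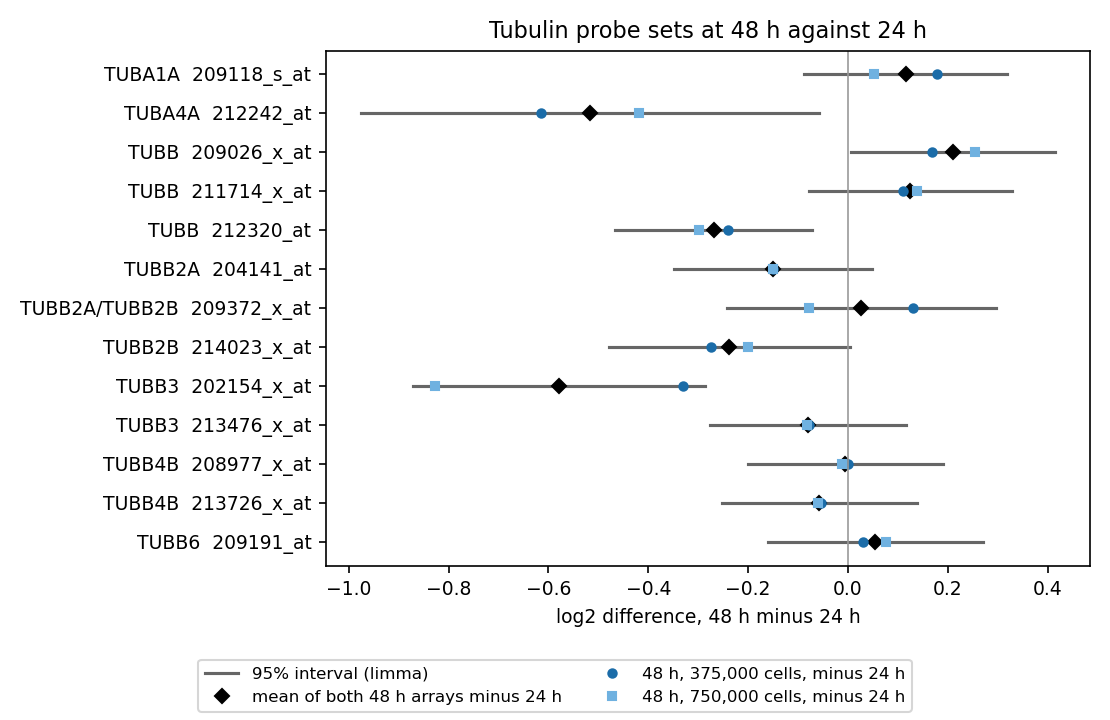
Log2 difference of the signal, 48 h minus 24 h (x axis), for the 13 tubulin probe sets above background, with the mean of both 48 h arrays (diamond), its 95% interval from limma (line) and each 48 h array alone (circle for the low-seeded, square for the high-seeded). The values run between -0.58 for 202154_x_at of TUBB3 and 0.21 for 209026_x_at of TUBB, and the low- and high-seeded points lie farthest apart for 202154_x_at.

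Over the 3 arrays, the SD of the log2 signal had a median of 0.092 among the 13 tubulin probe sets and 0.142 among all 20370 above background. It was lowest for 208977_x_at of TUBB4B, at 0.006, and highest for 202154_x_at of TUBB3, at 0.417, the only tubulin value above the 90th percentile of all (0.326). The tubulin signals were bright, 12 of 13 averaging above 1000, and the 8185 probe sets that bright had a median SD of 0.098, with 7 of the 12 tubulin probe sets below it. Probe sets of the same gene, such as those of TUBB, are not independent readings of the family. Of the 16 tubulin probe sets, 8 (50.0%) were of the x_at kind, against 7.7% of all probe sets, and 2 (12.5%) of the s_at kind, whose probes fit several transcripts, against 20.7%.

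Further genes of the tubulin pathway were followed as lists, of which 61 genes were above background. The counts per list below stand beside 50.5% of all genes measured. The shares of the other tubulins (62.5%) and the modifying enzymes (58.3%) were not far from it. Of 8 other tubulins with a probe set of their own, 5 were above background, and TUBA8, TUBAL3 and TUBG2 were not. TUBA1B and TUBA1C, the main alpha-tubulins of dividing cells, were among the 5, as was TUBG1, the gamma-tubulin of the centrosome, at 7052.3 and 7194.9 in the 48 h cultures and 7188.6 in the 24 h culture. TUBA3C and TUBA3D have only shared probe sets. All 12 folding genes measured were above background, that is, the prefoldin subunits that hand nascent tubulin to the chaperonin and the cofactors TBCA to TBCE with ARL2 and TBCEL, which assemble or take apart the dimer. All 5 genes of tubulin autoregulation were as well, among them TTC5, which recognises the start of nascent tubulins when soluble tubulin is in excess, at 1252.4 and 1179.8 in the 48 h cultures and 1049.1 in the 24 h culture. SCAPER and the CCR4-NOT subunits CNOT1, CNOT7 and CNOT11, through which tubulin mRNA is then degraded, completed that list.

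Of 24 enzymes that modify tubulin, 14 were above background, among them TTL, the ligase that restores the C-terminal tyrosine. TTLL4, TTLL5 and TTLL7, which add glutamates to the tail, were as well. TTL passed with 2 of its 4 probe sets, TTLL4 with 1 of 3, TTLL5 with 1 of 7 and TTLL7 with 2 of 3. TTLL1, TTLL2, TTLL6 and TTLL9 of the same ligase-like family were not above background, TTLL1 missing the threshold only in the low-seeded 48 h culture. In the gamma-tubulin ring, which nucleates microtubules, 8 of 9 genes were above background. TUBGCP6, the exception, missed the threshold only in the high-seeded 48 h culture, at 122.4 against 125.2. Of 23 genes of associated proteins, 17 were above background, among them MAP1A, MAP1B, MAP1S and MAP4. Among those that were not were MAP2, MAP6, MAPRE3 and STMN2. Over the 131 probe sets of these lists that were tested, the median log2 difference, 48 h minus 24 h, was 0.034, against -0.005 over all tested.

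**Figure D4:**
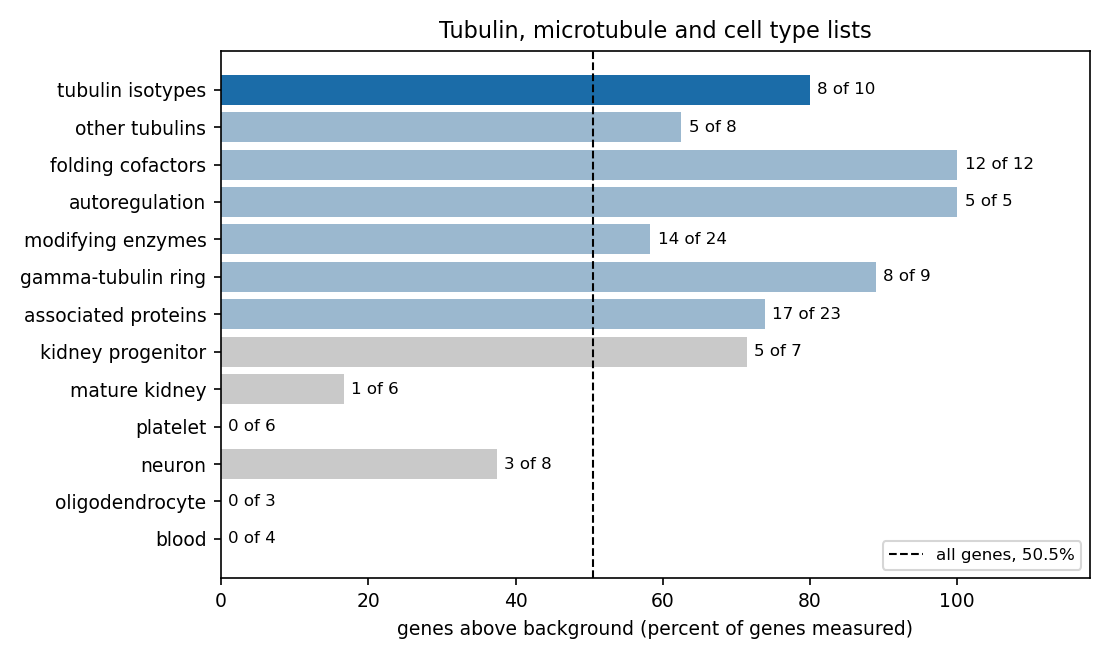
Bars give the percent of measured genes above background on all 3 arrays for the tubulin isotypes (dark), the lists of the tubulin pathway (light blue) and cell type markers (grey), with counts at the bar ends and all genes of the array (50.5%) as the dashed line. The isotypes stand at 8 of 10, folding and autoregulation genes at 12 of 12 and 5 of 5, and platelet, oligodendrocyte and blood markers at 0.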

How the data were processed

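The authors hybridised biotin-labelled cRNA of 3 HEK-293T cultures to Affymetrix HG-U133 Plus 2 arrays and deposited MAS5 signals (GCOS 1.0 in the submitters' processing notes), an intensity whose mean, with the outer 2% on each side left out, was 500.1 on every array. Absent/present calls were not used here. Nothing says that the cultures came from separate passages, so p-values do not reach beyond these samples. The p-values also do not measure the spread of a probe set over the 3 samples.

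Genes were assigned by the platform annotation, symbols being updated by gene ID. A probe set listed for several genes counted for none, apart from the marked shared tubulin probe set. The platform annotation gives 41097 probe sets 1 gene, 1801 several and 11777 none. Of the 253 reference probe sets, 6 were above background themselves, 3 of them of KRT10, a widely expressed keratin. The 48 h arrays were compared with the 24 h array by limma 3.58.1 (R 4.3.3; lmFit, eBayes with a mean-variance trend, Benjamini-Hochberg over 22166 probe sets) on log2(signal + 21.6), where 21.6 is the median signal of the reference, over probe sets with a mean log2 signal above that of the mean threshold (112.8). This understates differences at low signal. With 1 residual degree of freedom, the fit takes the spread of the 48 h pair for that of the only 24 h array. The 48 h pair also differs in seeding number. Moderation (16.718 prior degrees of freedom) then draws that spread mostly to the one pooled over all probe sets tested. Motif letters were searched in RefSeq windows (GRCh38.p14). Seeding number was no covariate, since 3 arrays do not allow it. The number of arrays limits the precision.

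Every tubulin probe set was to be named and, of each other list, the genes not above background if no more than 5, or else 4 on each side in list order. Genes named beyond this rule (TUBA1B, TUBA1C, TUBG1, TTC5, PAX8, SIX2, NEFL, NEFM and SYT1 among them) were chosen after their values were seen. The members and lists were chosen with earlier results of these data known. Alternatives were other percentiles, another reference, 2 of 3 arrays sufficing, leaving out probe sets that can share sequence, other normalizations, added values, filters and variance models, and each array left out in turn.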

Additional observations from a re-analysis of the deposited data

How the results depend on the processing

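The 13 probe sets and 8 genes above background were also found with the 90th percentile, with tissue genes only as reference, with 2 of 3 arrays sufficing, after quantile normalization and with each array left out in turn. Without probe sets that can share sequence 4 tubulin probe sets and 4 tubulin genes remained above background, TUBA1A, TUBB2B, TUBB3 and TUBB4B having no other kind of probe set. At the 99th percentile, a threshold of 1539.7 to 1951.2 with KRT10 in the reference and 213.3 to 244.4 without it, there were 11 probe sets and 7 genes, TUBA4A being lost. In an alternative chosen after seeing the data, the 99th percentile without KRT10 gave 13 and 8. The 61 other genes of the pathway became 23 at the 99th percentile (54 there without KRT10) and 40 without probe sets that can share sequence. They were 65 with 2 of 3 arrays sufficing and 61 to 64 with an array left out. These alternatives for the pathway genes were run after seeing the data. The share of all genes above background was not counted under the alternatives. Whether a change is particular to the tubulins or these lists therefore cannot be told.

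limma called 0 tubulin probe sets in every alternative, with adjusted p between 0.0721 and 1. Over all probe sets the 69 calls became 10 with scaling to equal medians and 0 without the mean-variance trend (1355 at an unadjusted p under 0.05), and the cause was not tested. The 4 tubulin probe sets at an unadjusted p under 0.05 became 2 and 1 under the same alternatives. Equal medians also moved 213476_x_at of TUBB3 to -0.13 and 213726_x_at of TUBB4B to -0.11, and gave a difference of -0.025 for the shared 209372_x_at, the 1 of 91 values with the other direction. No paired analysis was possible, with a single 24 h array and no recorded pairing of cultures.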

Other observations

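Probe sets listed for tubulin pseudogenes or for several other tubulins belong to no comparison above. That of TUBBP5, 222361_at, gave 312.9 and 323 in the 48 h cultures and 191.6 in the 24 h culture, above background on all 3 arrays. That of TUBB7P, 211915_s_at, gave 5.37 and 14.1 in the 48 h cultures and 7.69 in the 24 h culture, below it. The probe sets listed for both TUBA3C and TUBA3D were above background, with 320.8 and 280.4 in the 48 h cultures and 520.3 in the 24 h culture for 210527_x_at, and 313.4 and 435.8 in the 48 h cultures and 603.9 in the 24 h culture for 216323_x_at. Whether these signals come from transcripts of other tubulins was not tested.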
